A study of Mus musculus with 6 samples.

Results

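Regions of open chromatin at 10 circadian clock genes were compared between lung endothelial cells of CSE-KO and WT mice. The genes are Per1, Per2, Per3, Cry1, Cry2, Dbp, Nr1d1, Nr1d2, Clock and Bhlhe40. A region counted as a clock region where the deposited table names one of these genes, or where the table names no gene and one of the 10 had the closest start site of all 12711 protein-coding genes listed, at most 100 kb away. This gave 34 of 58172 regions, 18 by the deposited gene and 16 by distance, and each of the 10 genes had at least 1. Distance alone gives no evidence of which gene a region acts on.

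Each group had 3 ATAC-seq libraries, made with the transposase Tn5, which cuts and tags open DNA. CSE-KO libraries are labelled Cre-positive and as a knockout of cystathionine gamma-lyase (CSE), the enzyme encoded by Cth, and WT libraries are labelled Cre-negative. Whether the enzyme was lost in the whole animal or only in some cells is not given. Both groups share the cell source, endothelial cells isolated from mouse lung. The labels give neither the driver of the Cre, nor the age and sex of the mice, nor the time of day at collection. Cre, the loss of the enzyme and any difference in collection time therefore cannot be told apart. They also do not say that libraries came from separate animals, so a p-value covers no more than the spread among libraries, which may be technical.

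The molecular clock is a feedback loop found in most mammalian cells, including those of the vessel wall. CLOCK pairs with BMAL1, the product of Arntl, and the pair binds E-boxes to switch on Per, Cry, Nr1d1, Nr1d2, Dbp and Bhlhe40. PER and CRY proteins then block the pair, REV-ERB proteins (from Nr1d1 and Nr1d2) repress Arntl, DBP activates genes through D-boxes, and BHLHE40 competes at E-boxes. Because the output of the loop cycles through the day, a comparison of these loci asks whether the groups differ in a way that a difference in collection time could also give.

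Promoter windows of 250 bases before RefSeq start sites (build GRCm38.p6, the same assembly as mm10) were searched on both strands for the E-box CACGTG, the D-box as TTATGTAA or TTACGTAA, and the REV-ERB and ROR element as TAGGTCA or TGGGTCA. Matches of different elements did not overlap. RefSeq windows were at hand for 8 of the 10 genes (not Per2 or Bhlhe40), in 11 windows. An E-box stood in 2 of the 11 windows, at Cry1 and Per1, and in 6.02% of 32851 windows of all genes. A D-box stood in 1 of the 11, at Per3, and in 0.931% of all windows. No REV-ERB and ROR element stood in the 11, against 5.38% of all windows. The 3 windows with a match are shown because each overlaps an accessible clock region that the results below describe, and capitals mark the matches. They are Cry1 (minus strand, chr10:85185055-85185304), Per1 (plus strand, chr11:69098699-69098948, before a start site inside the gene) and Per3 (minus strand, chr4:151044666-151044915).
Cry1: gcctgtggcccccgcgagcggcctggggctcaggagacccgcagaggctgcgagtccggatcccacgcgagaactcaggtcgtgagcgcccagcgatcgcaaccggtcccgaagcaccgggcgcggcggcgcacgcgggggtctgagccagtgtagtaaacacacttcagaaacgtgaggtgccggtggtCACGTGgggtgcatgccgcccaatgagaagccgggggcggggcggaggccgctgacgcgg
Per1: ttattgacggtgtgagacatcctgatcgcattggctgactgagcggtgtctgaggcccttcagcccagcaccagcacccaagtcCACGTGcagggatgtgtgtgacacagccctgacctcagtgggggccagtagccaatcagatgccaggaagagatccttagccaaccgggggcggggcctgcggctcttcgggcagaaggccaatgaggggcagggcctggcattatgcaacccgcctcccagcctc
Per3: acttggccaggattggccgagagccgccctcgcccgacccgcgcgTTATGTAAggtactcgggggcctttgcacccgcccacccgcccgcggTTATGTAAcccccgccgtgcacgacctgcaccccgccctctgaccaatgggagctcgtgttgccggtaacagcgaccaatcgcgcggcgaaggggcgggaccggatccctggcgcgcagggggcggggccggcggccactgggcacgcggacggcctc
The E-box of Cry1 began 60 bases before the start site and that of Per1 166 bases before its start site. The Per3 window held 2 D-boxes, which began 205 and 158 bases before the start site. A match is a description of these letters and not a binding site.

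Values are the deposited normalised values per region, and a region was called when the adjusted p of limma on log2(value + 1), Benjamini-Hochberg over all 58129 tested regions, was under 0.05. Differences are CSE-KO minus WT on that scale, on which changes of weak regions come out too small. The Cth promoter, a check of the labels, had 11, 6 and 2 in CSE-KO replicates 1 to 3 and 195, 157 and 167 in WT. Values summed to between 5437296 and 5547417 in CSE-KO libraries and between 5242490 and 5368491 in WT. From the whole numbers that the CSE-KO columns skip, 1 read was worth about 1.54 to 1.64 there, or about 3316750 to 3605821 reads in regions. WT columns skip none, so their reads are at least as many as their sums if each value is a scaled count. Residual SD on the log2 scale was 0.481 in CSE-KO and 0.306 in WT. Regions of endothelial markers were found for 9 of 10 genes, Pecam1 having none assigned, and their summed values were 5548 to 5866 in CSE-KO and 7187 to 7574 in WT. Of these 63 regions 3 were called higher and 19 lower, where 7.7% and 9.6% of all tested regions were. The 9 promoter regions among them summed to 1343 to 1490 in CSE-KO and 1254 to 1316 in WT. Of the markers of other cells, 5 of 8 mural and fibroblast, 4 of 6 epithelial and 4 of 7 leukocyte genes had a region, and none was assigned to Col1a2, Cspg4, Dcn, Nkx2-1, Sftpc, Cd3e, Itgam or Ptprc. Their sums in the same order were 1027 to 1085, 928 to 1085 and 418 to 447 in CSE-KO, and 1085 to 1144, 938 to 1005 and 494 to 553 in WT. Their promoter regions alone summed to 228 to 263, 39 to 66 and 175 to 186 in CSE-KO, and to 154 to 159, 29 to 40 and 247 to 284 in WT. Of 21 mural and fibroblast regions 1 was called higher and 3 lower, of 16 epithelial regions 2 and 0, and of 6 leukocyte regions 0 and 1. The part of all these markers in the results on clock genes was not tested.

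Regions of clock genes were called about as often as regions of the table as a whole. All 34 regions passed the minimum mean value of 5, and in both groups their means lay well above it, the lowest being 11.7 in CSE-KO and 16 in WT. Of the 34, 4 were called higher in CSE-KO and 1 lower, or 14.7%, where 17.3% of all tested regions were called (7.7% higher, 9.6% lower). The 4 were single regions within Nr1d1 and Dbp and 2 regions of Cry1, and the lower one lay within Cry2. The median log2 difference was 0.09 over the clock regions and -0.00406 over all tested regions. The groups did not overlap at 15 of the 34, 11 with CSE-KO above and 4 with CSE-KO below, where 39.5% of all tested regions did not overlap (19% above, 20.5% below). The clock regions together held 0.0954% to 0.0987% of all values in CSE-KO libraries and 0.0958% to 0.101% in WT. In these bulk samples, fewer cells with an open region and less opening per cell cannot be told apart.

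The 5 calls depended on which libraries were used, while the log2 differences behind them kept their sign. Over 12 settings, with all libraries or without 1, these ran from 1.21 to 1.63 at Nr1d1 and from 1.07 to 1.48 at Dbp. At Cry1 they ran from 0.62 to 0.72 within the gene and from 0.73 to 0.90 upstream, and at Cry2 from -0.87 to -0.74. Without WT replicate 2, limma called none of the 34 regions, and 10 had an unadjusted p under 0.05. With all libraries 12 of the 34 had such a p, beside 19899 of all 58129 tested regions. Without WT replicate 3 limma called 1 clock region, and without WT replicate 1 it called 2. The share of all tested regions called then also fell, to 6.34%, 6.06% and 6.2% in that order. Leaving out 1 CSE-KO replicate gave 4 to 6 called clock regions. Some calls were gained in this way, at a region of Per2 without CSE-KO replicate 3, of Bhlhe40 without CSE-KO replicate 2 and of Cry1 without WT replicate 1 (adjusted p = 0.0339, 0.0293 and 0.0369). limma with its trend and robust options on called 10, 8 higher and 2 lower, at a background of 26.6%.

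**Figure D1:**
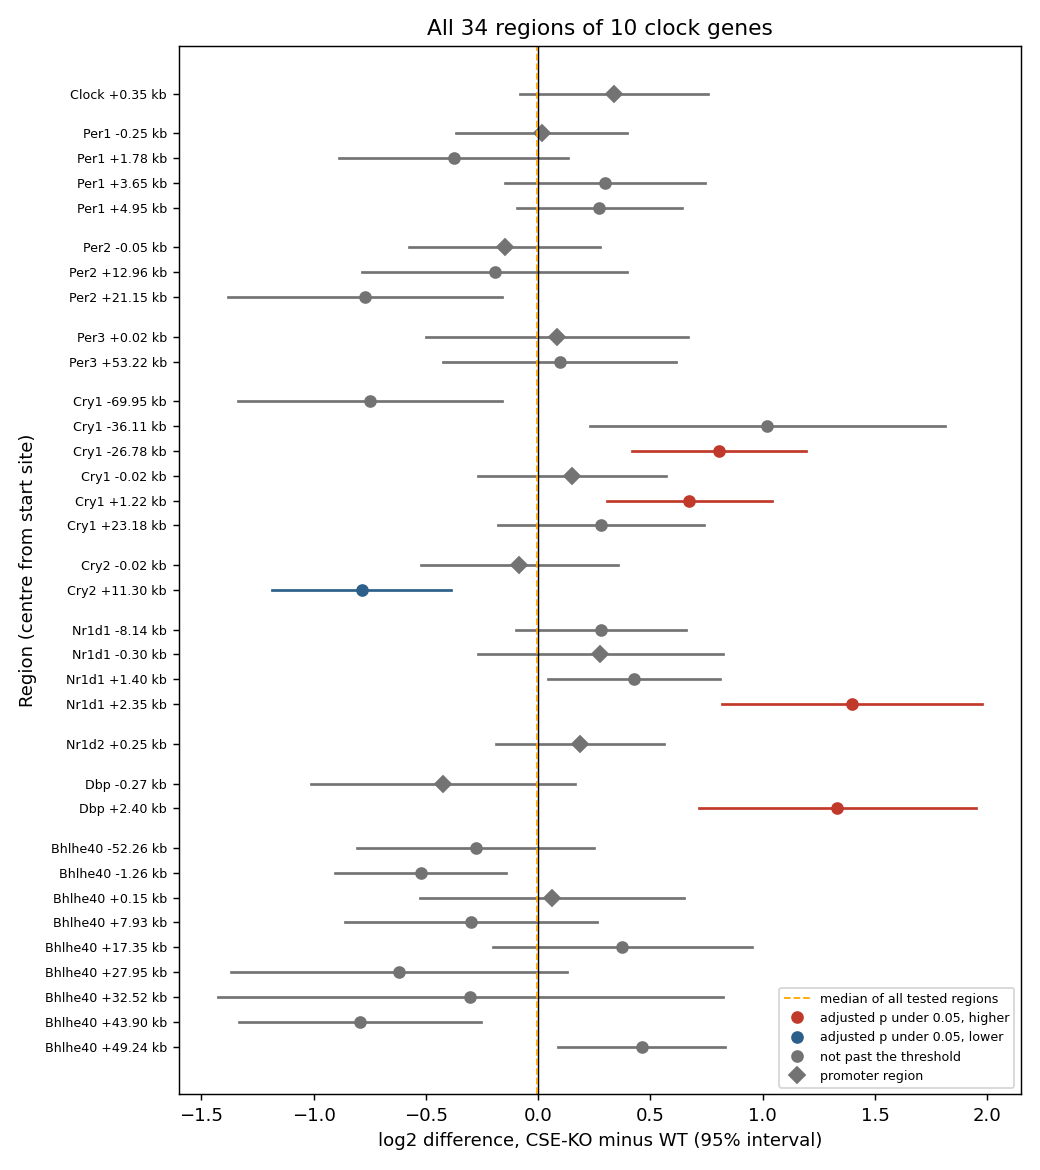
Log2 difference (CSE-KO minus WT, log2(value + 1) scale, horizontal axis) with its 95% interval for each of the 34 clock regions, labelled by the distance of its centre from the start site (negative is upstream). Diamonds are promoter regions, red and blue mark the 4 regions called higher and the 1 called lower, and the dashed line is the median of all tested regions. No promoter region was called, and the regions 2.35 kb into Nr1d1 and 2.4 kb into Dbp lie farthest to the right.

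None of the 10 promoter regions, 1 per gene with its centre within 1 kb of the start site, passed the test, where 8.52% of 13246 promoter regions of all genes did (5.23% higher, 3.29% lower). The broadest region of Bhlhe40, centred 1259 bp upstream, lay beyond this limit and is not among the 10. Its adjusted p was 0.0658 by limma, or 0.000268 with trend and robust on. At an unadjusted p under 0.05 the count of the 10 in limma was also 0, beside 3164 of the 13246 promoter regions of all genes. By adjusted p, 1 promoter was called with trend and robust on, that of Clock, and 1 without CSE-KO replicate 3, that of Dbp. Their log2 differences ran from -0.42 to 0.34 with a median of 0.07, against 0.11 over all promoter regions, and 7 of the 10 were above 0. Each of the 10 had a 95% interval that included 0. The lowest limit was -1.01, at Dbp, and the highest 0.82, at Nr1d1, while the interval at Per1 ran from -0.37 to 0.40.

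Clock, the activating partner of BMAL1, had the smallest p among the promoters. Its promoter region (chromosome 5, 76303595 to 76305282) had values of 408, 406 and 461 in CSE-KO replicates 1 to 3 and 286, 381 and 347 in WT. It was the only promoter of the 10 at which every CSE-KO library lay above every WT library, as was so at 3165 of 13246 promoter regions of all genes. The difference was 0.34 ± 0.18 (log2, SE), with an adjusted p of 0.227 by limma (0.0421 with trend and robust on). The region also overlaps the RefSeq span of Gm7467. By the smallest Euclidean distance over the 6 log2 values, among 11356 promoter regions, the promoters closest to it in level and pattern were those of Foxp4 (distance 0.121), Sgpl1 (0.163) and Nek1 (0.18).

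The Period genes encode the repressors that bring CRY to the CLOCK pair. Per1 had 274, 336 and 279 in CSE-KO and 290, 287 and 299 in WT at its promoter (chromosome 11, 69094644 to 69095290), a difference of 0.02 (95% interval -0.37 to 0.40). The WT values fell inside the CSE-KO range. Per2 had 390, 343 and 295 in CSE-KO and 411, 339 and 386 in WT (chromosome 1, 91458903 to 91459843), and the groups overlapped (difference -0.15, interval -0.57 to 0.28). At the Per3 promoter (chromosome 4, 151044225 to 151045070), the region of the D-box window above, values were 154, 285 and 205 in CSE-KO and 176, 201 and 213 in WT. CSE-KO replicate 2 was the highest and CSE-KO replicate 1 the lowest of the 6, and the difference of 0.09 became -0.14 without CSE-KO replicate 2.

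Inside Per1, 3 further regions were open. The region 3.65 kb from the first start site (69098745 to 69098993) covers the internal RefSeq start site of the E-box window above. It had 100, 78 and 102 in CSE-KO and 67, 74 and 86 in WT, which overlapped (adjusted p = 0.311). The region 4.95 kb in (69099940 to 69100396), which also spans an internal RefSeq start site, had 123, 126 and 138 in CSE-KO and 103, 102 and 115 in WT. There the groups did not overlap, but the difference of 0.27 ± 0.16 (SE) was not called by limma (adjusted p = 0.264). The region 1.78 kb in had 47, 32 and 46 in CSE-KO and 47, 52 and 63 in WT. The remaining regions of Per2 lay 13 and 21.2 kb into the gene, with means of 30.3 and 11.7 in CSE-KO and 33.7 and 20 in WT. At the farther of the pair every CSE-KO library was below every WT library (adjusted p = 0.083). A region 53.2 kb from Per3 had means of 56.7 in CSE-KO and 52 in WT.

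The Cryptochrome genes encode the stronger repressors of the loop, and their regions were called in opposite directions. The Cry1 promoter (chromosome 10, 85184452 to 85185718), which holds the E-box window above, had 350, 423 and 425 in CSE-KO and 367, 315 and 397 in WT (difference 0.15, interval -0.27 to 0.57). The groups overlapped there. The region 1.22 kb into Cry1 (85183723 to 85183959) had 64, 57 and 61 in CSE-KO and 35, 40 and 38 in WT. All CSE-KO libraries were above all WT libraries, and the rise was 1.6-fold (0.67 ± 0.16, log2 and SE, adjusted p = 0.0288 by limma). A region 26.8 kb upstream (85211692 to 85211991), outside any RefSeq gene, had 75, 81 and 64 in CSE-KO and 41, 43 and 40 in WT, a rise of 1.75-fold (0.81 ± 0.17, adjusted p = 0.02 by limma). These are again separate groups. Neither region of Cry1 was called once WT replicate 1, 2 or 3 was left out, with an adjusted p of 0.106, 0.0823 and 0.0957 for the region within the gene and of 0.0749, 0.0688 and 0.0791 for the upstream region. The region within the gene was not called without CSE-KO replicate 1 or 3 either (adjusted p = 0.0554 and 0.0539).

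Of the other regions of Cry1, 1 at 36.1 kb upstream had 33, 32 and 28 in CSE-KO and 25, 14 and 9 in WT, and was not called (adjusted p = 0.0785, or 0.0456 with trend and robust on). Farther upstream, at 70 kb, values were 10, 11 and 15 in CSE-KO and 25, 15 and 23 in WT, without a call (adjusted p = 0.0817). A region 23.2 kb into the gene had means of 133 in CSE-KO and 109 in WT, and its groups did not overlap (adjusted p = 0.353).

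Cry2 fell at a region 11.3 kb into the gene (chromosome 2, 92422525 to 92422969), which RefSeq also places within D930015M05Rik. Values were 54, 52 and 62 in CSE-KO and 104, 86 and 102 in WT, so that every CSE-KO library was below every WT library. The fall was 1.72-fold (-0.79 ± 0.17, log2 and SE, adjusted p = 0.0233 by limma). It was not called without CSE-KO replicate 2 or WT replicate 1, 2 or 3 (adjusted p = 0.0504, 0.0894, 0.0579 and 0.0897). At the Cry2 promoter (92433596 to 92434534) the values were 234, 227 and 276 in CSE-KO and 236, 239 and 309 in WT. The groups overlapped, with a difference of -0.08 (interval -0.52 to 0.35).

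**Figure D2:**
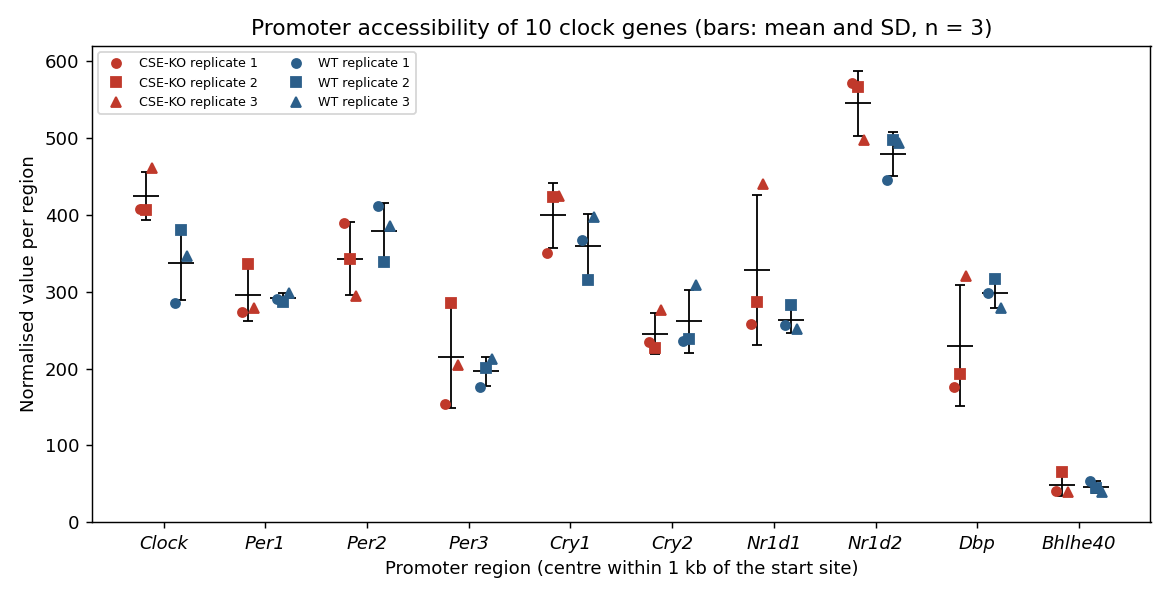
Deposited normalised value (vertical axis) of the promoter region of each of the 10 clock genes in every library, CSE-KO in red and WT in blue, with bars for mean and SD (n = 3). Clock is the only gene whose groups do not overlap, where 4766 of 13246 promoter regions of all genes do not. CSE-KO values of Nr1d1, Dbp and Per3 spread more than those of WT.

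Nr1d1 and Nr1d2 encode the REV-ERB nuclear receptors, which repress Arntl. Within Nr1d1, the region 2.35 kb from the start site (chromosome 11, 98772848 to 98773117) had 106, 129 and 72 in CSE-KO and 40, 32 and 40 in WT. The lowest CSE-KO value was above the highest WT value. The mean was 102 ± 28.7 in CSE-KO and 37.3 ± 4.62 in WT (SD, n = 3 each), and the rise of 2.64-fold (1.40 ± 0.25, log2 and SE, adjusted p = 0.0126 by limma) had the smallest p among the 34. It was not called without WT replicate 2 (adjusted p = 0.0545) and was called in each of the other alternatives.

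The neighbouring regions of Nr1d1 were also higher on average, without a call. At 1.4 kb into the gene (98773702 to 98774163) the values were 178, 218 and 210 in CSE-KO and 146, 157 and 146 in WT, which did not overlap (difference 0.43, adjusted p = 0.115, or 0.035 with trend and robust on). At 8.14 kb upstream, in a region that RefSeq places within Gm31862, they were 144, 123 and 136 in CSE-KO and 117, 112 and 102 in WT, again without overlap (difference 0.28, adjusted p = 0.261). The promoter (98775090 to 98776176) had 258, 287 and 440 in CSE-KO and 257, 283 and 251 in WT. Only CSE-KO replicate 3 stood clearly above WT there, and the difference of 0.28 was 0.05 without it. Nr1d2 had a single region, its promoter (chromosome 14, 18238201 to 18239561), with 572, 567 and 497 in CSE-KO and 446, 498 and 494 in WT (difference 0.18, interval -0.19 to 0.56). CSE-KO replicate 3 lay within the WT range.

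Dbp encodes a PAR-domain bZIP activator and is a direct output of the CLOCK pair. The region 2.4 kb into the gene (chromosome 7, 45707321 to 45707661) had 119, 70 and 67 in CSE-KO and 36, 27 and 34 in WT. The groups did not overlap. Its mean was 85.3 ± 29.2 in CSE-KO and 32.3 ± 4.73 in WT (SD, n = 3 each), a rise of 2.52-fold (1.33 ± 0.26, log2 and SE, adjusted p = 0.0174 by limma). Leaving out WT replicate 1, 2 or 3 ended this call (adjusted p = 0.0546, 0.0693 and 0.0607).

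At the Dbp promoter (45704132 to 45705501, overlapping also the RefSeq span of Car11) values were 176, 193 and 320 in CSE-KO and 299, 316 and 279 in WT. CSE-KO replicates 1 and 2 were below all WT libraries and CSE-KO replicate 3 above them. The difference was -0.42 (interval -1.01 to 0.16, adjusted p = 0.276 by limma), and without CSE-KO replicate 3 it was -0.69 with a call (adjusted p = 0.0484). The region within the gene therefore had 0.209 to 0.676 of the promoter's value in CSE-KO libraries and 0.0854 to 0.122 in WT. At Nr1d1 the region 2.35 kb in had 0.164 to 0.449 of the promoter's value in CSE-KO libraries and 0.113 to 0.159 in WT. CSE-KO replicate 3 had the highest promoter value of the 6 libraries at both genes, and the lowest value within the gene among the CSE-KO libraries at both.

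**Figure D3:**
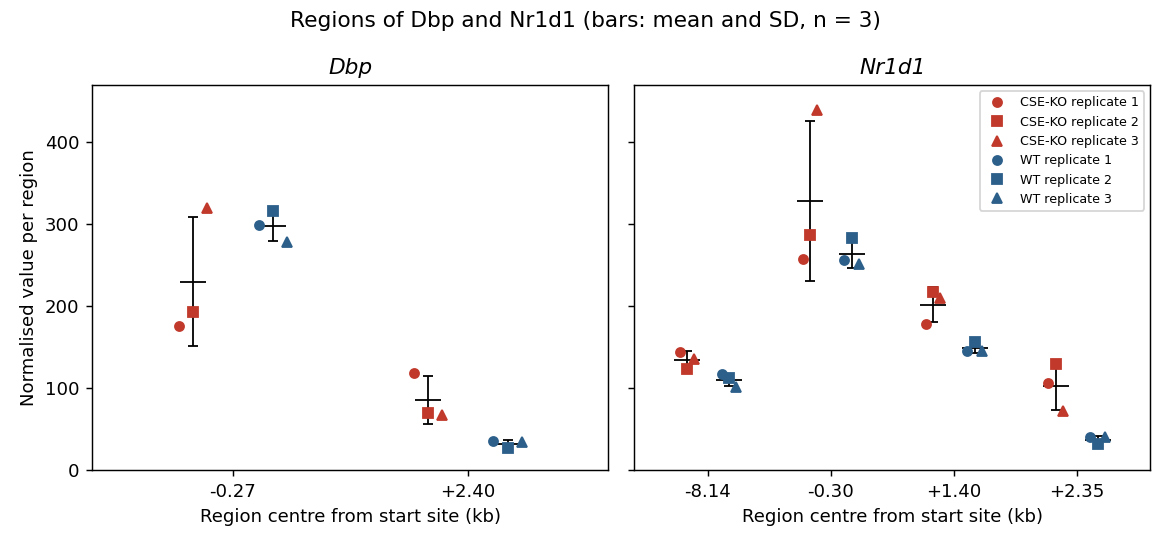
Deposited normalised value (vertical axis) of each region of Dbp (left) and Nr1d1 (right) by the distance of its centre from the start site in kb, in every library, CSE-KO in red and WT in blue, with bars for mean and SD (n = 3). The regions at 2.4 and 2.35 kb separate the groups, and the CSE-KO promoter values spread from 176 to 320 and from 258 to 440.

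Regions that the deposited table gives to a clock gene beyond 1 kb from its start site were few, 8, and 3 of them were called higher (those of Nr1d1, Dbp and Cry1 above). Among all 8585 such tested regions 7.92% were called higher and 10.2% lower. Of the 16 clock regions assigned by distance, 1 was called higher and 1 lower, where 7.37% and 12% of 24660 were.

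Bhlhe40, whose product competes with the CLOCK pair at E-boxes and also responds to hypoxia and other signals, had the most regions, 9, and none was called. Its broadest region (chromosome 6, 108658213 to 108660526), 2313 bp wide and centred 1259 bp upstream, had the highest values of all clock regions, with 559, 653 and 532 in CSE-KO and 837, 809 and 852 in WT. Every CSE-KO library was below every WT library. The difference was -0.52 ± 0.16 (log2, SE), with an adjusted p of 0.0658 by limma and 0.000268 with trend and robust on. This region lies within the RefSeq span of 0610040F04Rik. The small promoter region just inside the gene (108660688 to 108660876) had 41, 66 and 39 in CSE-KO and 54, 44 and 39 in WT.

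Other regions of Bhlhe40 differed in sign. A region 43.9 kb downstream of the start site had 15, 23 and 15 in CSE-KO and 36, 26 and 31 in WT (adjusted p = 0.0542 by limma, the closest miss of the 34, and 0.0475 with a pseudocount of 5). A region 49.2 kb downstream had 265, 239 and 225 in CSE-KO and 175, 186 and 167 in WT (adjusted p = 0.0877, or 0.0152 with trend and robust on), so these neighbours ran opposite ways, each without overlap of the groups. The 5 others, 7.93 to 52.3 kb from the start site, had overlapping groups.

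Per length, the open chromatin of promoters ranged from 168 per kb at Dbp to 459 per kb at Per1 in CSE-KO, and from 200 per kb at Clock to 452 per kb at Per1 in WT. These are group means of the normalised value divided by the width of the region. In both groups Per1 came first. Nr1d2 followed with 401 ± 30.8 per kb in CSE-KO and 352 ± 21.3 in WT, and Per2 with 365 ± 50.5 in CSE-KO and 403 ± 38.9 in WT (SD, n = 3 each). These neighbours changed places between the groups, and their SD ranges overlap in both groups. The other 7 promoters lay at 168 to 315 per kb in CSE-KO and 200 to 284 per kb in WT.

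Beyond the 10 genes, 21 other genes of the clock were counted from a list of the remaining loop members, modifiers and outputs. All 21 had a region, 101 in all, of which 10 were called higher and 8 lower in CSE-KO. This is 17.8%, beside 17.3% of all tested regions, and the median difference was 0.03. Among the 24 promoter regions of these genes 2 were called, both higher, or 8.33%, beside 8.52% of 13246 promoter regions of all genes (5.23% higher). Without WT replicate 1, 2 or 3, 6, 3 and 3 of the 18 calls remained, and without CSE-KO replicate 1, 2 or 3, 13, 10 and 13. The calls at 48.7 kb from Arntl (untested without WT replicate 3, where its mean fell under 5), 67.4 kb from Noct and 62.5 kb from Rorb held whichever library was left out. With trend and robust on, 17 of the 18 remained, all but that 48.7 kb from Arntl.

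Arntl, the gene of BMAL1, had 2 promoter regions. That at its start site had 394, 372 and 418 in CSE-KO and 467, 415 and 403 in WT (adjusted p = 0.643 by limma), and the groups overlapped. A smaller one, 0.82 kb into the gene, had 23, 49 and 21 in CSE-KO and 11, 11 and 17 in WT. It was 2.17-fold higher without a call (adjusted p = 0.0676 by limma). Every CSE-KO library lay above every WT library there, as at 3165 of 13246 promoter regions of all genes. A region 35 kb from the Arntl start site was called higher (mean 154 in CSE-KO and 102 in WT, adjusted p = 0.049 by limma). That call held in 0 of 6 fits with 1 library left out (adjusted p up to 0.162). A weak region 48.7 kb away was called lower, with 2, 2 and 2 in CSE-KO, about 1 read each, and 10, 7 and 16 in WT. Npas2, a stand-in for CLOCK in some tissues, had 4 regions and no call.

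Among the kinases that mark PER proteins for decay, Csnk1e was called higher at its promoter (93, 100 and 113 in CSE-KO, 52, 67 and 64 in WT, adjusted p = 0.0331 by limma) and at a region 9.07 kb upstream (2.52-fold). With 1 library left out, the promoter call held in 1 of 6 fits (adjusted p up to 0.114) and the upstream call in 4. Csnk1d was called higher at a region 6.53 kb away (2.08-fold). Of the F-box genes, whose products set how long PER or CRY persist, Fbxl21 was called lower at 27.8 kb (3.37-fold). Fbxw11 was called higher at 1.48 kb (1.96-fold) and lower at 10.1 and 19.8 kb (2.06-fold and 1.87-fold).

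Rorb, of the ROR receptors that oppose REV-ERB, was called higher at a promoter region (85, 78 and 74 in CSE-KO, 51, 56 and 38 in WT, adjusted p = 0.0474 by limma) and at 62.5 kb (3.45-fold). The promoter call held in 0 of 6 fits with 1 library left out (adjusted p up to 0.143). The other Rorb promoter region had 87, 97 and 130 in CSE-KO and 70, 61 and 71 in WT, without a call (adjusted p = 0.078 by limma). Rora had no call. Nfil3, a repressor at D-boxes, was called higher at 20.7 kb (2.52-fold), and Bhlhe41, the relative of Bhlhe40, at 9.58 kb (1.63-fold). Cipc, an inhibitor of CLOCK, was called lower at 10.2 kb (3.28-fold). Of the outputs, Noct was called lower at 67.4 and 27.1 kb (2.72-fold and 1.74-fold), Nampt lower at 37.1 kb (1.84-fold) and Wee1 higher at 35.6 kb (1.7-fold). The Nampt promoter ran the other way without a call, with 498, 553 and 535 in CSE-KO and 410, 360 and 406 in WT (adjusted p = 0.1 by limma). Arntl2, Ciart, Tef, Hlf, Btrc, Timeless and Usp2 had no call.

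**Figure D4:**
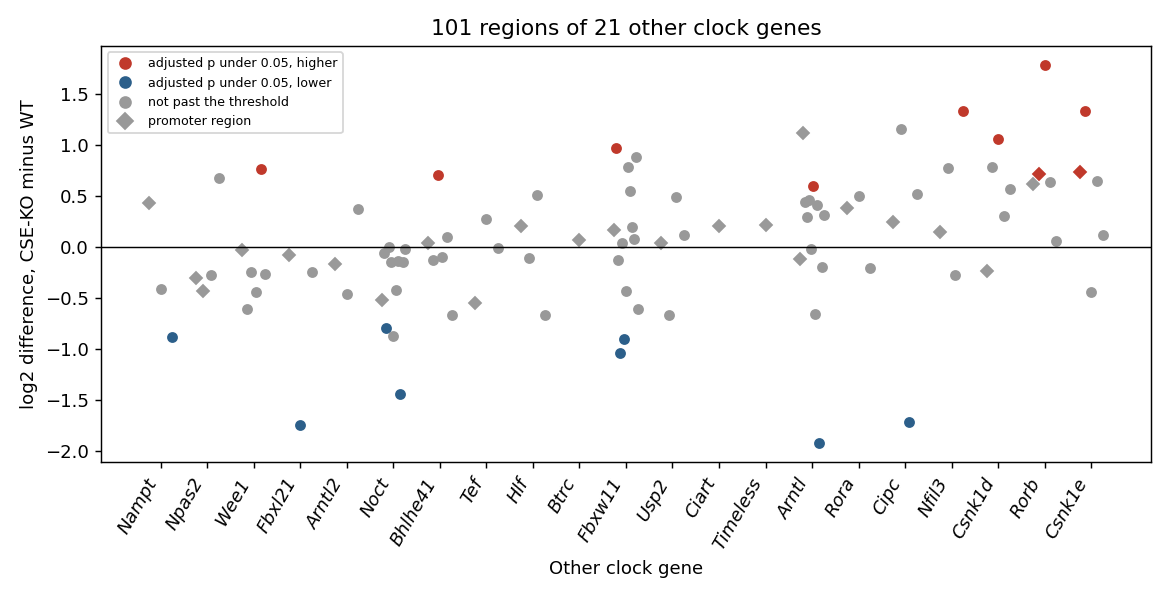
Log2 difference (CSE-KO minus WT, log2(value + 1) scale, vertical axis) of each of the 101 regions of the 21 other clock genes, ordered by the median of the gene. Diamonds are promoter regions and colours mark the 10 regions called higher (red) and the 8 called lower (blue). Among the promoter regions, only Csnk1e and Rorb have a coloured diamond.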

How the data were processed

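The 6 libraries (3 CSE-KO, 3 WT) were grouped by their titles. The submitters' processing notes name mm10, DESeq2 1.26.0, Picard 3.1.1, STAR 2.7.3a and Trimmomatic 0.39. Peak caller, Tn5 shift and each tool's role were not found in the labels. As a unit, score was chosen for the deposited values, because they are whole numbers with nearly equal sums, and CSE-KO columns skip 35 to 39 of the whole numbers up to 100, marks of scaled and rounded counts. The count test planned for raw counts was therefore not used. The deposited distance to the start site defined promoters (within 1 kb).

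limma 3.58.1 in R 4.3.3 was fitted to log2(value + 1) of all 58129 regions with a mean of at least 5, and tested on simulated data. Python 3.11.15 and pandas 2.3.3 were used for the rest. Alternatives changed the pseudocount, filter, limma options, scaling, assignment, replicate block and libraries. The clock genes and all lists were chosen with earlier results of these data known. Every promoter region, every called region and the strongest region of each gene is given by library, with each called region of the other clock genes. The other member regions were given by range or by means, some by library after their values were seen. Some genes of the planned list of other clock genes are not reported here.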

Additional observations from a re-analysis of the deposited data

How the results depend on the processing

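Of the 34 clock regions, 4 were called higher and 1 lower. Filtering no low values, quantile normalization and a 50 kb limit (31 regions) left these counts as they were. A pseudocount of 5 gave 2 lower, the deposited symbols alone (18 regions) gave 0 lower, and limma's trend and robust options gave 8 higher and 2 lower, with 15448 of all regions called against 10057. Without 1 library, the clock calls ranged from 0 to 4 higher and from 0 to 3 lower, the calls over all regions from 3519 to 8922, and the clock median from 0.039 to 0.18 (0.09 with all). Same-numbered libraries did not deviate together over the table (Pearson r of their deviations over 58129 regions -0.00593, -0.0105 and 0.0105). Whether they were collected or handled together cannot be told from this. With the replicate numbers as a block, 2 clock regions were called higher and 0 lower, and 6013 of all regions. Those 2, at Nr1d1 and Dbp, were among the 5. Promoter differences near 0 changed sign without 1 library. Over these settings Cry2 ran from -0.17 to 0.043 (the upper end without WT replicate 3), Per3 from -0.14 to 0.30 and Per1 from -0.078 to 0.068 (lowest without CSE-KO replicate 2), and Bhlhe40 from -0.17 (without CSE-KO replicate 2) to 0.20, with -0.043 without WT replicate 3. None of these was called, and the cause was not tested. What the depth of the libraries limits was not tested.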
